A study of Homo sapiens with 3 samples.

Results

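The keratins KRT5, KRT14, KRT17, KRT8 and KRT19 were examined as 5 of the 110 endogenous genes on an nCounter panel, picked by their names, with earlier results of these data known. They were counted in 3 libraries of total RNA from MCF10A, an immortalised, non-tumorigenic line of human mammary epithelial cells. The libraries carry the labels luminal, basal and stem for the cell subpopulation, with 1 library each. No genetic change, drug treatment or time point is given for any of them. How the subpopulations were obtained is not said in the labels, which name a kit for fixed, paraffin-embedded tissue. In the nCounter assay a barcoded probe binds each target RNA and single barcodes are counted without amplification. The title of the study concerns cell state transitions under Slug, a zinc finger repressor encoded by SNAI2, and the libraries allow the keratin make-up of these states to be set side by side.

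Keratins are the intermediate filament proteins of epithelial cells, and each filament is built from pairs of an acidic type I and a basic type II keratin. KRT5 (type II) with KRT14 (type I) forms the network of basal and myoepithelial cells of the breast. KRT17, another type I keratin, marks basal cells and is induced in wounded epithelium. KRT8 (type II) is the main keratin of luminal cells, where it pairs with type I keratins such as KRT18 and KRT19. KRT18 was not analysed here. MCF10A cells are known for making basal and luminal keratins side by side.

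The type II genes lie on chromosome 12 and the type I genes on chromosome 17 (RefSeq annotation of GRCh38.p14). The spans given are those of the annotated genes, which can be longer than the transcript of the probe. KRT5 (probe accession NM_000424.2) spans chr12:52514575-52520394 and KRT8 (NM_002273.3) spans chr12:52897191-52949860. KRT14 (NM_000526.4) spans chr17:41582279-41586895, KRT17 (NM_000422.2) spans chr17:41619442-41624575 and KRT19 (NM_002276.4) spans chr17:41523617-41528308. The promoter of KRT5 is shown because the study's title names Slug, a factor known to bind E-boxes of the letters CAGGTG. The window is 250 bases before to 50 after the gene's start, on the minus strand, chr12:52520345-52520644 of GRCh38.p14 (RefSeq), with the E-box in capitals.
KRT5 promoter: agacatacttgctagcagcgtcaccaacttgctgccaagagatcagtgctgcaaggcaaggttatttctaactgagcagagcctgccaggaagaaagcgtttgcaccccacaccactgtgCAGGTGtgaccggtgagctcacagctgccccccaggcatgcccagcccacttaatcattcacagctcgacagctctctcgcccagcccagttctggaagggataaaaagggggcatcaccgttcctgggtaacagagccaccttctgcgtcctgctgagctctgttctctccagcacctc
The E-box begins 130 bases before the start. It is a description of the letters and not a measured binding site. CAGGTG, or CACCTG on the opposite strand, stands in 20.6% of the 35116 RefSeq promoter windows of the same length. TATAAA and GGGCGG were not found on either strand of this window, whereas 11.5% and 45.0% of the windows hold them.

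Endogenous counts came to 9136 for luminal, 8891 for basal and 792367 for stem, so that the precision of each comparison with stem was set by the other library. The spiked positive controls differed as well, with totals of 2795, 776 and 69670 counts in the same order. The median gene other than housekeeping genes had 14, 12 and 1207 counts. Background, the mean plus 2 SD of the 8 negative control probes, stood at 1.83, 1 and 18.9 counts in that order. In basal the mean and the maximum of these probes were both 1, so that any count above 1 passed. The lowest listed value is 1, and such a 1 may stand for 0 or 1 counts. As each subpopulation had 1 library, differences have no replicate check, and there is no test and no p-value. All intervals are exact 95% intervals for counting error only and leave out the spread between samples.

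KRT8 and KRT5 were among the most abundant RNAs of the panel in every library, with KRT14 and KRT17 close behind. KRT8 had 1239 counts in luminal, 1076 in basal and 83241 in stem, which placed it 2nd, 2nd and 3rd of 110 genes by count. KRT5 had 972, 917 and 61068 counts and was 4th, 3rd and 4th. KRT14 had 473, 565 and 42822 counts, and KRT17 had 534, 342 and 49063. KRT17 was ahead of KRT14 in luminal and stem and behind it in basal. Ranks by count compare different probes, whose capture can differ, so that they describe the counts and not molar amounts. The 4 keratins together held 35.2% (34.2 to 36.2) of the endogenous counts in luminal. They held 32.6% (31.6 to 33.6) in basal and 29.8% (29.7 to 29.9) in stem, the lowest share. KRT19 stood apart from them, with a listed 1 in luminal and in basal and 32 counts in stem.

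**Figure D1:**
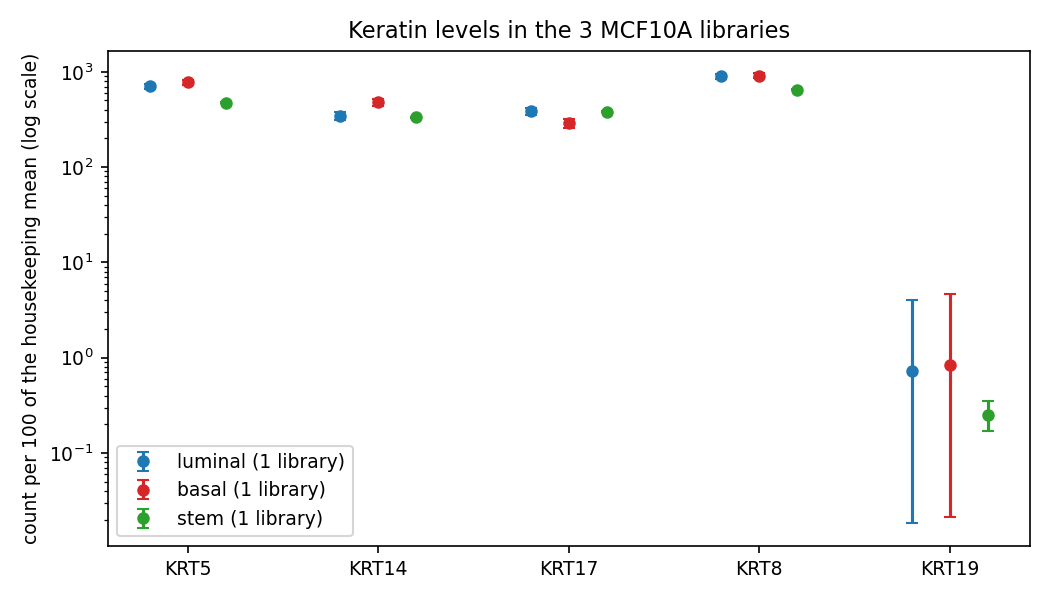
Count per 100 of the housekeeping geometric mean (log axis) for the 5 keratins, with 1 point per library and bars for the 95% counting interval. KRT5, KRT14, KRT17 and KRT8 lie between 289 and 909 in all 3 libraries, while KRT19 lies below 1, and its luminal and basal points are the listed value of 1 and not a measured level.

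A ratio of 2 keratin counts within a library needs no scale between libraries, and the unequal capture of the 2 probes cancels when such ratios are compared between libraries. All 6 pairs of KRT5, KRT14, KRT17 and KRT8 were compared over the 3 pairs of libraries, 18 comparisons in all. In 14 of them the interval of the change excluded 0 on the log2 scale.

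The basal library differed from the other 2 in the balance of the type I keratins KRT17 and KRT14. There were 0.605 (0.528 to 0.694) KRT17 counts per KRT14 count in basal, against 1.13 (0.996 to 1.28) in luminal and 1.15 (1.13 to 1.16) in stem. The ratio was lower in basal than in luminal by a log2 change of -0.90 (-1.17 to -0.63), and higher in stem than in basal by 0.92 (0.72 to 1.12). Between stem and luminal it differed by 0.02 (-0.16 to 0.20), so that these libraries were not separable in this pair.

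The ratio of the basal pair KRT14 and KRT5 was lowest in luminal and highest in stem. KRT14 counts per KRT5 count were 0.487 (0.435 to 0.544) in luminal, against 0.616 (0.554 to 0.685) in basal and 0.701 (0.693 to 0.710) in stem. The log2 change was 0.34 (0.12 to 0.56) for basal over luminal and 0.53 (0.37 to 0.69) for stem over luminal. For stem over basal it was 0.19 (0.03 to 0.34). With intervals leaving 0.1% outside, stem over luminal still excluded 0 (0.26 to 0.80), while basal over luminal (-0.03 to 0.71) and stem over basal (-0.07 to 0.45) did not.

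KRT17 against KRT5 gave the widest spread of the 6 pairs. KRT17 counts per KRT5 count were 0.373 (0.328 to 0.423) in basal, 0.549 (0.493 to 0.611) in luminal and 0.803 (0.794 to 0.813) in stem. Stem over basal was the only keratin pair comparison past 2-fold, at 2.15-fold (1.90 to 2.45). The log2 change was -0.56 (-0.80 to -0.32) for basal over luminal and 0.55 (0.39 to 0.70) for stem over luminal.

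**Figure D2:**
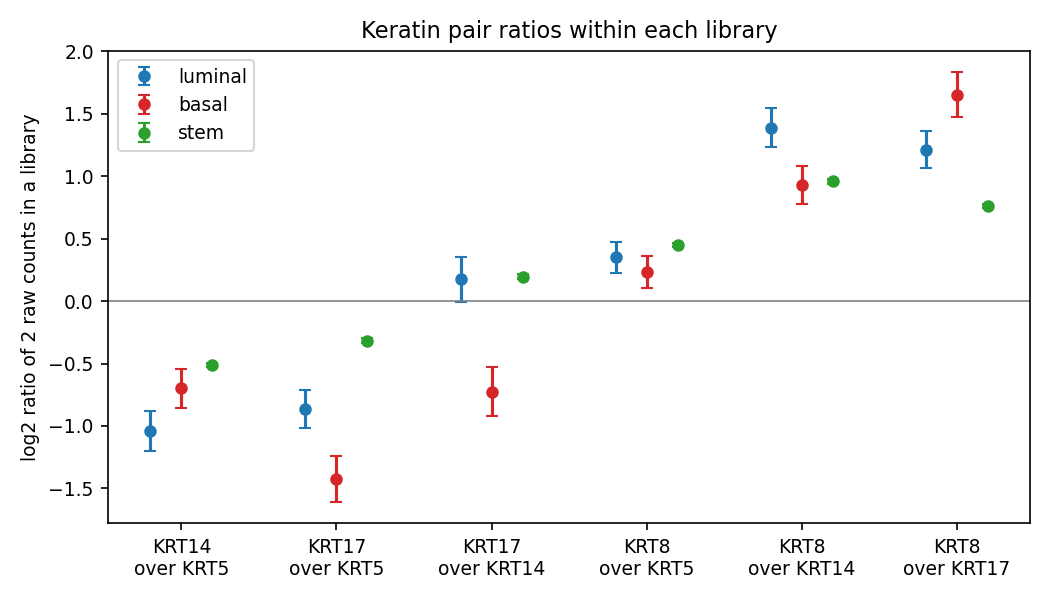
Log2 ratio of 2 raw keratin counts within a library (vertical axis) for the 6 keratin pairs, with 1 point per library and bars for the 95% counting interval. For KRT17 over KRT14 the basal library lies at -0.72, while luminal and stem lie at 0.17 and 0.20.

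The luminal keratin KRT8 varied least against KRT5, the other type II keratin. There were 1.17 (1.07 to 1.28) KRT8 counts per KRT5 count in basal, 1.27 (1.17 to 1.39) in luminal and 1.36 (1.35 to 1.38) in stem. The log2 change was -0.12 (-0.30 to 0.06) for basal over luminal and 0.10 (-0.03 to 0.22) for stem over luminal. For stem over basal it was 0.22 (0.09 to 0.35). The luminal library was therefore not separable from either of the others in this pair, while stem and basal were, though not with an interval leaving 0.1% outside.

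Against the type I keratins KRT8 varied more. KRT8 counts per KRT14 count were 2.62 (2.35 to 2.92) in luminal, against 1.90 (1.72 to 2.11) in basal and 1.94 (1.92 to 1.97) in stem. Luminal had the highest ratio, and stem and basal differed by a log2 change of 0.03 (-0.12 to 0.18). KRT8 counts per KRT17 count were 3.15 (2.78 to 3.56) in basal, 2.32 (2.09 to 2.57) in luminal and 1.70 (1.68 to 1.72) in stem. These 2 pairs thus put the libraries in different orders, since KRT8 stood highest against KRT14 in luminal and highest against KRT17 in basal.

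As shares of the 4-keratin total, type II keratins held 61.1% (60.9 to 61.3) of the counts in stem, against 68.7% (67.1 to 70.3) in luminal and 68.7% (67.0 to 70.4) in basal. The type II to type I ratio was 2.20 in luminal and in basal and 1.57 in stem. Stem over luminal was a log2 change of -0.48 (-0.59 to -0.37), and basal over luminal one of 0.00113 (-0.16 to 0.16). Luminal and basal had nearly the same type II share although their type I counts were divided differently. KRT14 held 14.7% (13.5 to 16.0) in luminal and 19.5% (18.1 to 21.0) in basal, and KRT17 16.6% (15.3 to 17.9) and 11.8% (10.6 to 13.0). In stem KRT14 held 18.1% (18.0 to 18.3) and KRT17 20.8% (20.6 to 20.9). Unlike a ratio of 2 probes, a sum weighs each keratin by the capture of its probe, which does not cancel between libraries. The near equality of luminal and basal is thus one of counts at these weights.

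The basal keratins KRT5, KRT14 and KRT17 together held 64.8% (64.6 to 65.0) of the 4-keratin counts in stem, 62.9% (61.1 to 64.7) in basal and 61.5% (59.8 to 63.2) in luminal. Their ratio to KRT8 did not separate the library labelled basal from that labelled luminal, with a log2 change of 0.09 (-0.07 to 0.24). The keratin counts thus do not set these 2 libraries apart in the sense of their labels as a group. The sum of the basal keratins also weighs each by the capture of its probe. KRT14 alone was higher relative to KRT8 in basal, and KRT17 alone was lower.

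Abundant RNAs other than keratins also changed their ratios between the libraries. ACTB, which encodes beta-actin, and RPLP0, a ribosomal protein gene, are housekeeping genes with counts in the range of the keratins or above. Their ratio was 0.361 (0.333 to 0.391) in basal and 0.746 (0.740 to 0.752) in stem, with luminal between them (interval 0.464 to 0.540). The log2 change of -0.47 (-0.63 to -0.31) for basal over luminal and of 1.05 (0.93 to 1.16) for stem over basal was of the size of the keratin changes. For stem over luminal it was 0.58 (0.47 to 0.69), above the largest keratin pair change of that comparison, 0.55. The spiked positive controls A and B, added RNA of known amount, had a ratio of 4.70 (4.61 to 4.80) in stem, against 6.11 (5.47 to 6.84) in luminal and 5.82 (4.74 to 7.22) in basal. That ratio was lower in stem than in luminal by a log2 change of -0.38 (-0.54 to -0.22) and lower than in basal by -0.31 (-0.62 to -0.01), although it is meant to be the same in every lane. For basal over luminal it differed by -0.07 (-0.41 to 0.28). For stem over luminal spike A was also lower against C, at -0.27 (-0.56 to -0.0015), whereas A against D, at -0.14 (-0.63 to 0.30), and the pairs among B, C and D, at 0.11 to 0.23, had intervals that included 0. The part of the spike A difference in the keratin ratios with stem was not tested.

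The keratin pairs were also set beside all other pairs of the 22 genes with at least 50 counts in every library. For basal over luminal 5 of the 6 keratin pairs had intervals excluding 0, against 20.9% of 225 other pairs. For stem over luminal it was 4 of 6 against 52.4%, and for stem over basal 5 of 6 against 59.1%. The keratin pairs have more counts and narrower intervals, with a median half-width of 0.23 on the log2 scale for basal over luminal against 0.55 for the other pairs. The median size of the log2 change was 0.45 for the keratin pairs and 0.29 for the others in basal over luminal, 0.44 and 0.40 in stem over luminal, and 0.55 and 0.43 in stem over basal. Pairs that share a gene are not independent, and these values are descriptions.

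**Figure D3:**
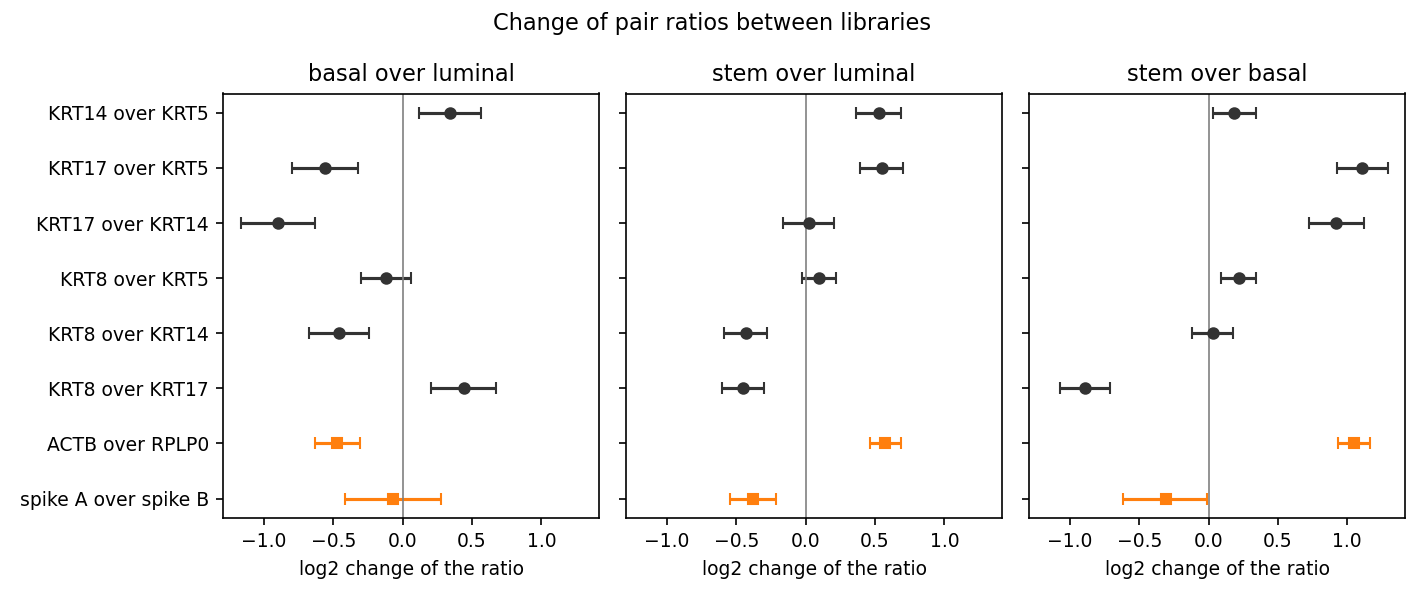
Log2 change of a count ratio between 2 libraries (horizontal axis) with its 95% counting interval, for the 6 keratin pairs (circles), for ACTB over RPLP0 and for spiked controls A over B (squares). The change of ACTB over RPLP0 for stem over basal, 1.05, is as large as that of KRT17 over KRT5, 1.11, and the spike ratio lies below 0 in both comparisons with stem.

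Levels between libraries need a scale, here the geometric mean of the library's 5 housekeeping genes, SF3A1, RPLP0, PSMC4, MRPL19 and ACTB. Per 100 of that mean, KRT5 had 775 (725 to 826) in basal, 704 (661 to 750) in luminal and 475 (472 to 479) in stem, its lowest level on this scale. KRT8 had 909 (855 to 965) in basal, 898 (849 to 949) in luminal and 648 (644 to 652) in stem, also lowest in stem, with luminal and basal not separable. KRT14 had 477 (439 to 518) in basal, 343 (313 to 375) in luminal and 333 (330 to 337) in stem, highest in basal, with luminal and stem not separable. KRT17 had 289 (259 to 321) in basal, 387 (355 to 421) in luminal and 382 (379 to 385) in stem, lowest in basal, with luminal and stem again not separable.

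Of these 4 keratins, 0 passed a limit of 2-fold with an interval excluding 1 in any of the 3 comparisons. Over all genes above background other than housekeeping genes, 2.53% of 79 passed for basal over luminal, 4.26% of 94 for stem over luminal and 3.19% of 94 for stem over basal. Without the fold limit, 2 keratins were higher and 1 was lower in basal than in luminal, where 12.7% of the tested genes were higher and 3.8% lower. In stem over luminal 0 were higher and 2 lower, against 20.2% and 4.26%. In stem over basal 1 was higher and 3 were lower, against 12.8% and 11.7%. The intervals of the keratins were far narrower than those of most genes, with half-widths of 0.12 to 0.20 on the log2 scale for basal over luminal against a panel median of 0.94, so that small differences were counted for them more readily. The median log2 ratio of basal over luminal was 0.08 for the 4 keratins and 0.14 for the tested genes. The medians were -0.26 and 0.16 in stem over luminal, and -0.50 and 0.03 in stem over basal.

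A scale made of the 6 positive controls raises every log2 ratio by 1.19 in basal over luminal, by 1.66 in stem over luminal and by 0.47 in stem over basal. With it 43 panel genes passed the limit of size as higher and 0 as lower in basal over luminal. In stem over luminal 70 were higher and 0 lower, so that the keratins moved with the whole panel. On that scale KRT17 was higher in basal than in luminal, at 0.77 (0.57 to 0.97), and so were KRT8 in stem over luminal, at 1.19 (1.11 to 1.27), and KRT5, with a log2 ratio of 1.09. The signs of the 4 keratins for stem over basal were the same under all scales tried, below 0 for KRT5, KRT14 and KRT8 and above 0 for KRT17. On the scale of 6 positive controls, though, KRT14 at -0.05 (-0.17 to 0.07) and KRT8 at -0.02 (-0.11 to 0.06) had intervals that included 0. With controls A to D alone, a scale chosen after seeing the data, both intervals excluded 0. There KRT14 was at -0.40 (-0.52 to -0.27) and KRT8 at -0.37 (-0.45 to -0.28). The log2 ratio of KRT5 for basal over luminal, 0.14 (0.01 to 0.27), came to -0.092 without SF3A1, which had 22 counts in luminal and 10 in basal, and to -0.045 under scaling by total count.

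**Figure D4:**
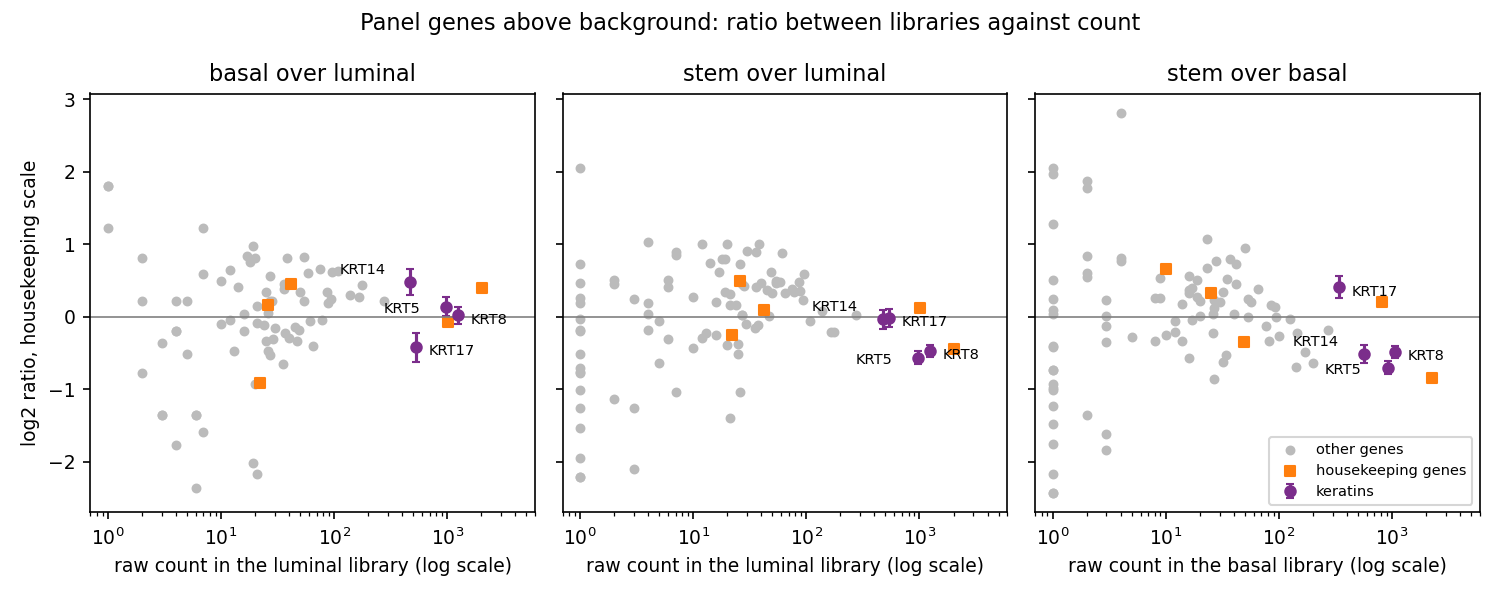
Log2 ratio between 2 libraries on the housekeeping scale (vertical axis) against the raw count in the second library (horizontal log axis) for housekeeping genes and genes above background, with 95% counting intervals for the keratins. The keratins and RPLP0 lie at the right end of each panel, and in stem over basal KRT17 at 0.40 and ACTB at 0.20 lie above 0 while KRT5, KRT8, KRT14 and RPLP0 lie below.

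KRT19, a type I keratin of luminal cells that lacks most of the usual tail domain, was near or at background everywhere. Its 32 counts in stem (21.9 to 45.2) stood above the background of 18.9 and came to 22.9 after the mean of the negative controls was subtracted. That is 0.384 (0.263 to 0.543) KRT19 counts per 1000 KRT8 counts before subtraction and 0.275 after it. The listed 1 in luminal and in basal allows up to 5.57 counts, or up to 4.50 and 5.18 per 1000 KRT8 counts. At the KRT8 ratio of stem, 0.476 counts would have been due in luminal and 0.414 in basal, so that KRT19 could not have been detected there at this depth. No order of KRT19 among the libraries, and no ratio of it between them, is therefore given.

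Among genes linked to the keratin network, VIM, which encodes the mesenchymal intermediate filament vimentin, differed between libraries in its ratio to KRT17, KRT8 and KRT5. VIM had 175 counts in luminal, 203 in basal and 14062 in stem. VIM counts per KRT17 count were 0.594 in basal against 0.328 in luminal and 0.287 in stem, a log2 change of 0.86 (0.49 to 1.22) for basal over luminal and -1.05 (-1.31 to -0.79) for stem over basal. Per KRT8 count VIM was higher than in luminal by 0.42 (0.09 to 0.74) in basal and by 0.26 (0.03 to 0.50) in stem. Per KRT5 count it was higher in stem than in luminal by 0.35 (0.12 to 0.60). Against KRT14 it did not separate the libraries, with a log2 change of -0.04 (-0.39 to 0.31) for basal over luminal. In stem over luminal it was -0.17 (-0.43 to 0.09), and in stem over basal -0.13 (-0.37 to 0.11). The ratios to VIM and DSP were chosen after their values were seen.

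Of 19 genes of desmosomes and hemidesmosomes, the junctions that anchor keratin filaments, 2 were on the panel. DSP, which encodes the desmosomal linker desmoplakin, had 276 counts in luminal, 275 in basal and 26177 in stem. DSP counts per KRT5 count were 0.284 in luminal, 0.300 in basal and 0.429 in stem, with a log2 change of 0.08 (-0.20 to 0.36) for basal over luminal and 0.59 (0.40 to 0.79) for stem over luminal. Per KRT8 count the changes were 0.20 (-0.08 to 0.47) and 0.50 (0.31 to 0.69). Against KRT14 and KRT17 stem and luminal differed by 0.07 (-0.15 to 0.29) and 0.05 (-0.17 to 0.26). For stem over basal DSP was higher against KRT5, by 0.52 (0.32 to 0.72), against KRT8, by 0.30 (0.11 to 0.50), and against KRT14, by 0.33 (0.12 to 0.54). Against KRT17 it was lower, with a log2 change of -0.59 (-0.83 to -0.36). JUP, which encodes the junction protein plakoglobin, had 65, 42 and 7543 counts in luminal, basal and stem, with a log2 level ratio of 0.73 (0.29 to 1.20) for stem over basal on the housekeeping scale. The level ratio of DSP in that comparison was -0.19 (-0.36 to -0.01), so that 1 of the 2 was higher and 1 lower. On the scale of 6 positive controls, which shifts this comparison by 0.47, DSP turned to 0.28 (0.10 to 0.45). Controls A to D shift it by only 0.12, too little to turn the sign of DSP. Its interval then includes 0, as it does without ACTB, MRPL19 or SF3A1. Total count shifts the comparison by 0.28, more than the 0.19 of DSP, so that its sign turns there too. By median of ratios DSP stayed lower, at -0.30 (-0.47 to -0.12).

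Of 22 basal epithelial genes other than keratins, 6 were on the panel. In basal over luminal 0 of the 4 above background had an interval excluding 1, and the median log2 ratio was 0.09 against 0.14 for all tested genes. In stem over basal FOXC1 passed only through stem, with 111 counts against a listed 1. There 2 of 5 were higher and 0 lower, against 12.8% and 11.7% of all tested genes, with a median of 0.23 against 0.03. They were CDH3, which encodes P-cadherin, at 0.80 (0.34 to 1.31), and CAV1, which encodes caveolin 1, at 0.39 (0.03 to 0.76), and the same 2 of 5 were higher in stem over luminal, against 20.2% of the tested genes. Of 21 luminal genes other than keratins, 10 were on the panel, with 4 above background in basal over luminal and 7 in each comparison with stem. GATA3, ESR1, PGR, ERBB3, CLDN4 and CLDN3 were listed at 1 in luminal and in basal and dropped out of basal over luminal. EPCAM passed background there only through luminal. The median log2 ratio of the 4 left was -1.88 in basal over luminal, against 0.14 for all tested genes. This median depends on which genes passed the filter and does not describe the 10 as a group. The median was -1.04 against 0.16 in stem over luminal, and -0.13 against 0.03 in stem over basal. In both, GATA3, ESR1 and ERBB3 passed only through stem, with 39, 24 and 57 counts against a listed 1. EPCAM also had a listed 1 in basal. Ratios to a listed 1 are not measured levels, so that no direction of the list is read from these medians. FOXA1, EPCAM and CLDN7 had only 5, 6 and 7 counts in luminal and 3, 1 and 2 in basal. The surface glycoprotein CD24, with 21 counts in luminal, 4 in basal and 738 in stem, was the only one with an interval excluding 1 in any comparison. Its log2 ratio was -2.17 (-4.17 to -0.60) for basal over luminal (1 of 4 lower, against 3.8% of the tested genes). For stem over luminal it was -1.41 (-2.03 to -0.70) (1 of 7 lower, against 4.26%). On the positive control scale these log2 ratios rise by the shifts given above, and CD24 came to -0.98 (-2.98 to 0.59) for basal over luminal and 0.25 (-0.37 to 0.95) for stem over luminal, both with intervals that included 0. By median of ratios the intervals of CAV1 include 0.

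The genes whose ratios between libraries were closest to those of a keratin were sought among the 21 other genes with at least 50 counts in every library, by the Euclidean distance over the 3 log2 ratios. KRT5 and KRT8 were each other's nearest gene, at a distance of 0.27, and RPLP0 (0.31) and DDIT4 (0.43) were next for KRT5. DDIT4 (0.36) and RPLP0 (0.51) were next for KRT8. KRT14 lay closest to VIM (0.22), CCNB1 (0.23) and DDIT4 (0.27), with none of the other keratins among these 3. KRT17 had no gene as close, since its nearest were ACTB at 0.42, CAV1 at 0.53 and CDC20 at 0.75. DDIT4 encodes a stress-induced inhibitor of mTOR signalling, and CCNB1 and CDC20 act in mitosis. With 3 libraries these distances are descriptions of few points that share the same scale.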

How the data were processed

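RNA of 110 endogenous genes was counted in 3 MCF10A libraries with the NanoString nCounter. The deposited raw file gives a barcode count for each probe, not normalized, per the file headers. Steps before the counts are not given in the sources used here beyond the manufacturer's protocol. A second table holds log2 values for 105 genes that the authors deposited. To within 3.53e-09 they are the log2 count minus the mean log2 count of 5 housekeeping genes in the same library.

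Raw counts were used. Levels were divided by the geometric mean of the same genes. Intervals of ratios are exact: Clopper-Pearson, conditional on the sum of 2 counts, for 1 ratio, and the conditional odds ratio for the change of a pair ratio. They take the scale as exact, whether it is made of housekeeping genes or of positive controls. The limit of size was 2-fold with an interval excluding 1 and a count above background in at least 1 library. The code was tested on simulated data. Python 3.11.15, scipy 1.17.1, numpy 2.4.6 and pandas 2.3.3 were used. The keratins, the gene lists and the rules were chosen with earlier results of these data known. Named by rule were the keratins, housekeeping genes, list members and the 3 nearest genes of each keratin. Markers of adipocytes, immune cells, endothelial cells and fibroblasts were listed too, and 0 of them were on the panel. Of the 7 basal or myoepithelial and 8 luminal markers, 4 and 6 were on the panel, and CDH3 was the only basal one that is no keratin. Among 6 transcription factors of the epithelial to mesenchymal transition, ZEB1 was on the panel, with 2 counts in luminal and in basal and 85 in stem. Of 9 intermediate filament genes other than keratins, VIM was. Probe accessions were matched to RefSeq of GRCh38.p14 without versions.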

Additional observations from a re-analysis of the deposited data

How the results depend on the processing

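The 18 keratin pair changes stayed within their intervals when the negative control mean was subtracted. That mean was only 1.125 counts in luminal, 1 in basal and 9.125 in stem, so that its subtraction could hardly move them. Ratios from the deposited log2 values are the same by construction. With intervals leaving 0.1% outside, 11 of the 14 still excluded 0, and those lost were KRT14 to KRT5 in basal over luminal and in stem over basal, and KRT8 to KRT5 in stem over basal. No paired analysis was possible because each subpopulation had 1 library, so that no replicate could be left out either. Keratin levels depend on the scale. Of 132 alternative values, of which those from the deposited values are equal by construction, 78 stayed within the interval. In all 22 had another sign. For 14 of them (KRT14 and KRT17 in stem over luminal, KRT8 in basal over luminal) the interval had included 0 from the start. For the other 8 it had not: these were KRT5 in basal over luminal (-0.045 by total count, -0.092 without SF3A1), KRT5 in stem over luminal (1.09 with 6 positive controls, 1.21 with A to D), KRT8 in stem over luminal (1.19 and 1.30) and KRT17 in basal over luminal (0.77 and 1.23). Positive controls A to D, and the share without RPLP0, were chosen after seeing the data. In the order basal over luminal, stem over luminal, then stem over basal, every log2 ratio shifts by 1.65, 1.77 and 0.12 with positive controls A to D, by -0.18, 0.10 and 0.28 by total count, and by -0.088, -0.20 and -0.11 by median of ratios. Leaving out 1 housekeeping gene shifts them by -0.23 (SF3A1) to 0.11 (PSMC4), -0.11 (RPLP0) to 0.12 (MRPL19) and -0.21 (RPLP0) to 0.17 (SF3A1).

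The panel genes past the limit of size, 2 for basal over luminal, became 43 with 6 positive controls (3 of the 4 keratins among them), 55 with A to D (4 keratins), 9 at 1.5-fold and 0 with intervals leaving 0.1% outside. The 4 for stem over luminal became 70 with either set of positive controls (4 keratins in each), 2 without RPLP0, without SF3A1 and by median of ratios, 7 without MRPL19, 13 at 1.5-fold and 0 at 3-fold. All genes of the 43, 55 and 70 under positive controls were higher in the first library of the comparison, and 0 were lower. The 3 for stem over basal became 11 with 6 positive controls, 5 with A to D and without MRPL19 or SF3A1, 8 by total count, 1 by median of ratios and without PSMC4, and 13 at 1.5-fold (1 keratin). The keratin share in luminal, basal and stem was 53.8%, 51.0% and 43.7% without the housekeeping genes and 45.3%, 43.9% and 36.1% without RPLP0, with stem lowest throughout. Depth limits KRT19 in luminal and basal, and the counts of these libraries limit every comparison with stem.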
